A study of Homo sapiens with 4 samples.

Results

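Translation initiation factors (eIFs) and elongation factors (eEFs) are the soluble proteins that bring ribosomes to the start codon of a message and then drive them along it. The genes described here are all protein-coding genes whose symbols begin with EIF1 to EIF6 or EEF1 to EEF2, without the EIF2AK kinases. The rule matched 66 RefSeq symbols, and 63 of them stand among the 27685 gene IDs of the deposited tables. EIF2S3B, EEF1AKMT4 and EEF1AKMT4-ECE2 were not analysed here. The rule uses symbols and no expression value, although it was set with earlier results of these data known. The set includes inhibitors and enzymes that act on the factors as well as the factors themselves.

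The RNA came from NCC-IT-A3 cells, which the labels class as embryonal carcinoma, a germ cell tumour type resembling cells of the early embryo. Cells were exposed for 4 days to 100 nM barasertib, an inhibitor of the mitotic kinase Aurora B, or to the solvent DMSO, with 2 libraries in each group, and all cells grew in serum-containing RPMI medium. Nothing in the labels tells whether libraries of 1 group derive from separate cultures. The p-values therefore set the difference between groups against a spread between libraries that may be only technical. Levels are in TPM, a length-scaled unit that adds to 1000000 in each library and lets genes be set beside each other. They are given in the order DMSO 1, DMSO 2, barasertib 1, barasertib 2.

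In initiation, eIF2 bound to GTP carries the initiator tRNA to the small ribosomal subunit, eIF3 holds the complex together, and eIF4F (the cap binder eIF4E, the scaffold eIF4G and the helicase eIF4A) recruits it to the cap of the message. eIF2B recharges eIF2 with GTP. In elongation, eEF1A delivers aminoacyl-tRNA and eEF2 moves the ribosome by a codon. Many messages for ribosomal proteins and elongation factors begin with a run of pyrimidines, the 5′ terminal oligopyrimidine (TOP) motif, through which mTOR and the RNA-binding protein LARP1 control their translation and stability.

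The start sites of several members are shown first because the pyrimidine runs in them are counted against the calls further on. Each line gives 15 bases before and 15 bases from the annotated first base of the transcript, from RefSeq (GRCh38.p14), 5′ to 3′ on the gene's strand. Capitals mark the longest unbroken run of C and T, of at least 4 bases, that reaches within 5 bases of that first base. The first 8 genes fell with barasertib, 6 of them with a run of at least 8 C or T and then EEF1G and EIF1 without one, and the last 4 rose.
EEF1A1, chr6:73521018-73521047, minus strand: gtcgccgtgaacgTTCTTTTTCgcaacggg
EEF2, chr19:3985449-3985478, minus strand: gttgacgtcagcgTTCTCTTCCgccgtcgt
EIF2S3, chrX:24054941-24054970, plus strand: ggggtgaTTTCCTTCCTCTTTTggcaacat
EIF3F, chr11:7987322-7987351, plus strand: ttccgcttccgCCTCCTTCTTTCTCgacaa
EIF2D, chr1:206612451-206612480, minus strand: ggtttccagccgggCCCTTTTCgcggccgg
EIF2A, chr3:150546772-150546801, plus strand: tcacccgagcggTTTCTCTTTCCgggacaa
EEF1G, chr11:62573877-62573906, minus strand: tctcccgggcggcttaCTTTgcggcagcgc
EIF1, chr17:41688870-41688899, plus strand: aggcaccgCCCCTCTgccccagtcactgag
EIF2S1, chr14:67360313-67360342, plus strand: gcgaggaggTTCCgcatgcgcggtggagtg
EIF2B3, chr1:44986581-44986610, minus strand: attgggctgtcagtcagaggcggcgtggag
EIF4A3, chr17:80147114-80147143, minus strand: gttctcggcagcggcacagcgaggtcggca
EIF5B, chr2:99337374-99337403, plus strand: gcgcactgagaactcacaccatatgtgtcc

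Over the whole set, abundant elongation factors and several initiation factors were lower with barasertib, and a smaller number of mostly less abundant factors were higher. Genes averaging 1 TPM or more were tested with limma on log2(TPM + 1), and a gene is said to rise or fall where its Benjamini-Hochberg adjusted p over all 13938 tested genes was under 0.05. Of the 63 members, 60 passed the filter, and 20 of these fell and 12 rose. Among all tested genes 7.44% were called lower and 22.0% higher, against 33.3% and 20.0% of the tested members. EIF4E1B and EIF5AL1 lay under the filter, and EIF1AY is counted but was not tested, and its level is not given. The median log2 change of the tested members was 0.05, beside 0.11 for all tested genes. The barasertib libraries lay above both DMSO libraries for 26 tested members and below both for 24, beside 49.1% and 19.7% (together 68.8%) of all tested genes. A single member, EEF1A2, changed by 2-fold or more.

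Since the typical gene was higher in TPM, the calls were repeated with median-of-ratios scaling and with quantile normalisation, which bring that median over all tested genes to -0.01 and -0.01. After median-of-ratios scaling 5 members rose and 27 fell, beside 1534 and 1891 of the 13938 tested genes. After quantile normalisation 11 members rose and 19 fell, beside 1649 and 1590. The members called in the same direction under all 3 scalings were 18 that fell and 5 that rose, beside 7.05% and 10.0% of all tested genes. Those that rose under all 3 were EEF1A2, EIF5A, EIF2B3, EIF4A3 and EIF2S1. With any library left out, which leaves 1 library in a group, fewer members were called in each direction, as among all tested genes. The fewest members were called without barasertib replicate 1.

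**Figure D1:**
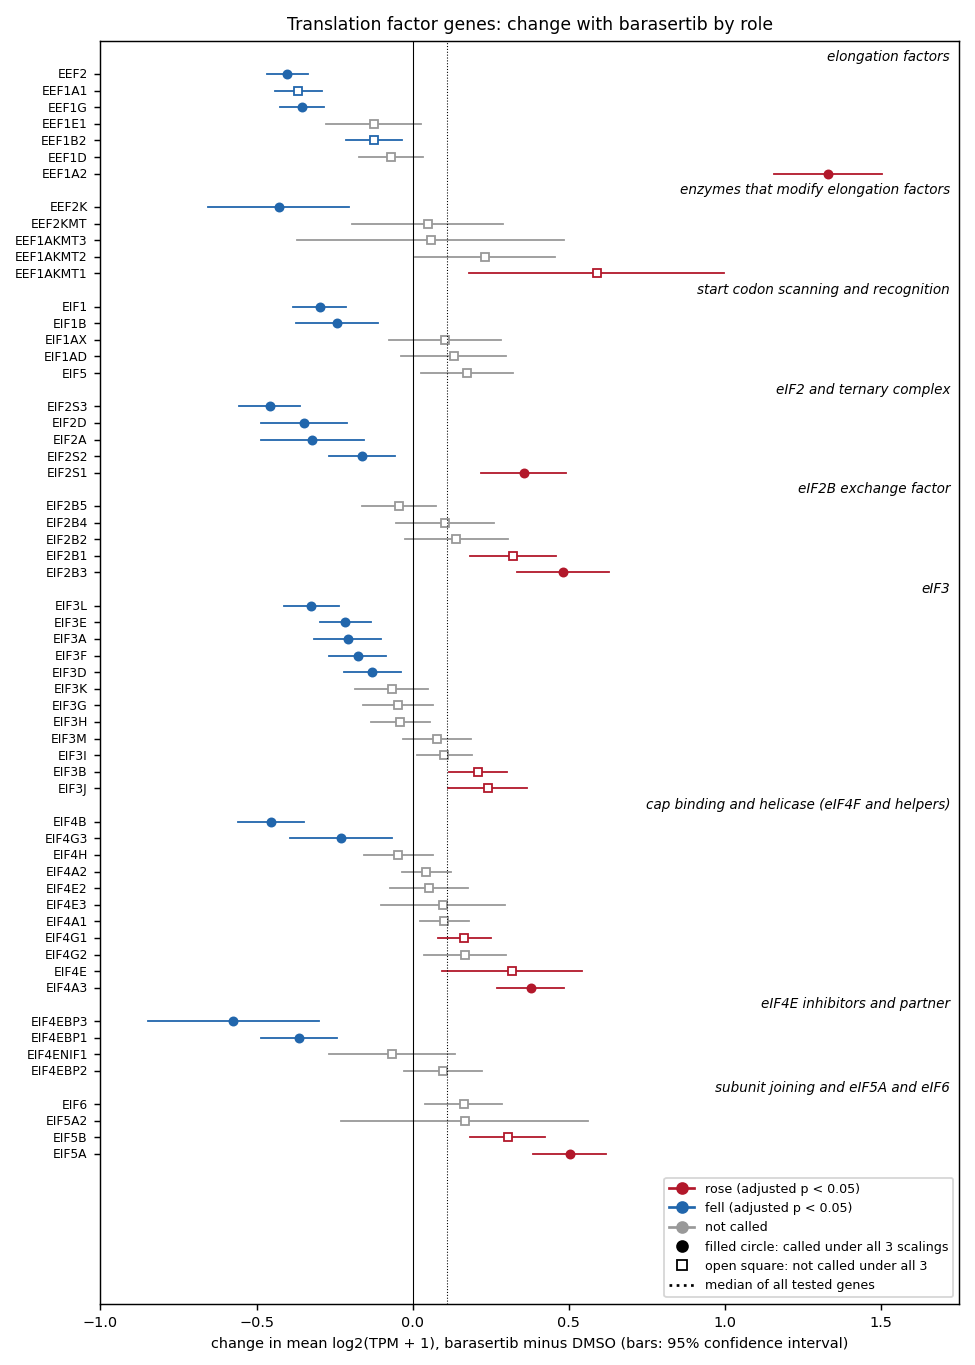
Change in mean log2(TPM + 1), barasertib minus DMSO, for the tested members by role, with 95% confidence intervals from limma. EIF3C and EIF3CL, which share reads, are left out. Red marks members that rose and blue those that fell. Filled circles mark members called under all 3 scalings, and the dotted line is the median of all tested genes at 0.11. EEF1A2 stands apart at 1.33, and the other members lie between -0.57 and 0.59.

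The elongation factors held most of the RNA of the set. EEF1A1, which encodes the main form of eEF1A, was the most abundant member at 12457, 12663, 9521 and 9978 TPM. EEF2, the translocation factor, was at 5868, 5742, 4398 and 4390.2 TPM. EEF1G, a subunit of the eEF1B complex that reloads eEF1A with GTP, was at 3954, 3919, 3035 and 3116 TPM. In these 3 genes the barasertib libraries lay below both DMSO libraries, as in 19.7% of all tested genes. EEF1A1 fell by 22.4% (log2 change -0.37 ± 0.03 SE, limma adjusted p = 0.00109). EEF2 fell by 24.3% (-0.40 ± 0.03, limma adjusted p = 0.00058). EEF1G fell by 21.9% (-0.36 ± 0.03, limma adjusted p = 0.0010). All 3 calls held with each library left out. The EEF1A1 call was lost under quantile normalisation (limma adjusted p = 0.276).

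The remaining eEF1B subunits differed less. EEF1B2, the exchange subunit, was at 735, 759, 678 and 692 TPM and fell by 8.31%, a call lost with quantile normalisation and in each fit that left out a library (limma adjusted p between 0.0923 and 0.218). EEF1D, also an exchange subunit, averaged 336 ± 2.24 TPM (SD, n = 2) in the DMSO libraries against 320.1 ± 10.2 TPM in the others and was not called (log2 change -0.07, 95% interval -0.17 to 0.03). EEF1E1, a scaffold protein of the multi-tRNA synthetase complex, averaged 121 ± 7.37 and 111 ± 4.28 TPM and was not called either. Both fell after median-of-ratios scaling (limma adjusted p = 0.0200 and 0.0304), and EEF1E1 also after quantile normalisation (limma adjusted p = 0.0425).

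EEF1A2, the form of eEF1A typical of neurons and muscle, went the other way. Its levels were 12.2, 12.1, 32.8 and 31.4 TPM, and the groups lay far apart relative to the spread within them. The log2 change was 1.33 ± 0.07 (2.52-fold, limma adjusted p = 0.00034), and it was called with every library left out and under all 3 scalings. It remained far less abundant than its paralog: EEF1A1 exceeded EEF1A2 by a factor of 1021 and 1044 in the DMSO libraries and 290.1 and 318 in the barasertib libraries. In the hg19 coordinates of the files, EEF1A2 lies on chromosome 20 from 62119365 to 62130668 (minus strand) and EEF1A1 on chromosome 6 from 74225473 to 74230755 (minus strand). EEF1A1 has many processed copies in the genome, and the sources used here do not say how reads matching several places were assigned.

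Enzymes that modify elongation factors were expressed at low levels. EEF2K, the kinase that phosphorylates eEF2 and thereby slows elongation, was at 9.08, 9.28, 6.50 and 6.62 TPM, with the barasertib libraries below both controls. It fell by 28.5% (limma adjusted p = 0.0192), although the call was lost in each leave-one-out fit (adjusted p between 0.0643 and 0.0779). EEF1AKMT1, a lysine methyltransferase of eEF1A, was at 2.77, 3.50, 5.96 and 4.52 TPM. It rose in TPM (log2 change 0.59 ± 0.17, limma adjusted p = 0.0440), but under neither of the other scalings. The call was lost without barasertib replicate 1, without barasertib replicate 2 and without DMSO replicate 1 (highest limma adjusted p = 0.185). EEF1AKMT2, EEF1AKMT3 and EEF2KMT, which also methylate eEF1A or eEF2, were not called.

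**Figure D2:**
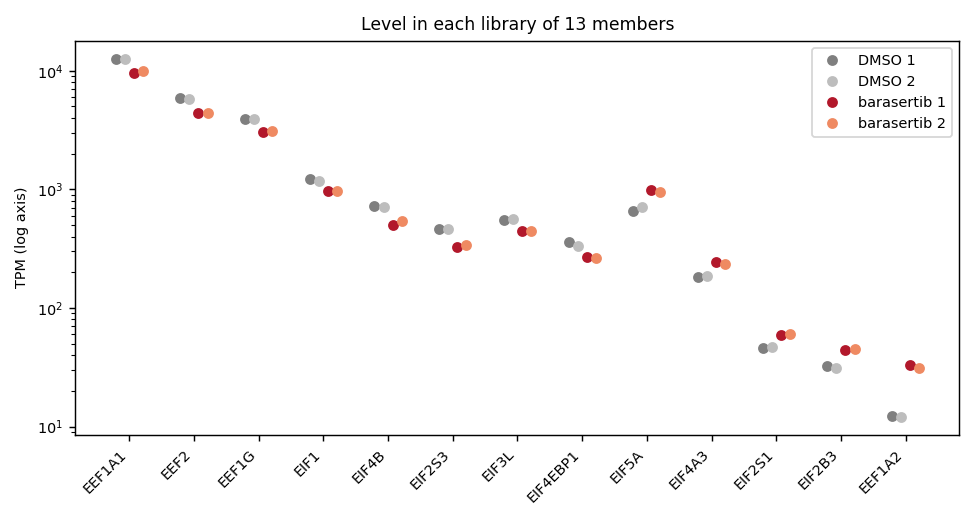
Level in each of the 4 libraries (TPM, log axis) of 13 members, grey for DMSO and red or orange for barasertib. The first 8 genes, from EEF1A1 to EIF4EBP1, lie lower in both barasertib libraries, and the last 5, from EIF5A to EEF1A2, lie higher.

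The subunits of eIF2 moved apart. EIF2S3, the gamma subunit that binds GTP and initiator tRNA, was at 459, 463, 329 and 342 TPM, with the groups clearly separate. It fell by 27.2% (log2 change -0.46 ± 0.04, limma adjusted p = 0.00122) in every leave-one-out fit. EIF2S1, the alpha subunit that the eIF2 kinases phosphorylate under stress, was the least abundant subunit and was higher with barasertib in both libraries, at 45.9, 46.8, 58.7 and 60.4 TPM. It rose by 28.5% (log2 change 0.36 ± 0.06, limma adjusted p = 0.0072), and this call too held with each library left out. EIF2S2, the beta subunit, was at 278, 279.9, 243 and 255 TPM and fell by 10.7%, a call lost in each leave-one-out fit (limma adjusted p between 0.056 and 0.133). The ratio of EIF2S1 to EIF2S3, a pair picked after the values were seen, was 0.0999 and 0.101 in DMSO and 0.178 and 0.177 in barasertib. With 2 libraries against 2, an exact two-sided permutation test of such a ratio cannot go below p = 0.333.

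Alternative carriers of initiator tRNA fell as well. EIF2A, which can deliver the tRNA on some messages, was at 61.9, 64.9, 48.3 and 52.8 TPM, and EIF2D, which also acts in ribosome recycling, was at 55.1, 54.3, 43.1 and 42.4 TPM. Both genes were lower in both barasertib libraries than in either control, as were 19.7% of all tested genes. EIF2A fell by 20.2% (limma adjusted p = 0.0174) and EIF2D fell by 21.8% (limma adjusted p = 0.0077). The EIF2A call was lost without barasertib replicate 1 or DMSO replicate 2 (highest limma adjusted p = 0.0728), and the EIF2D call held throughout. Of the 5 genes in this group 4 fell and 1 rose under all 3 scalings, beside 7.05% and 10.0% of all tested genes.

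Of the 5 subunits of eIF2B, 2 rose and none fell in TPM, beside 22.0% and 7.44% of all tested genes. After median-of-ratios scaling 1 rose and 1 fell, beside 1534 and 1891 of all 13938 tested genes. EIF2B3, the gamma subunit of the catalytic part, was at 32.1, 31.2, 44.1 and 45.1 TPM and rose by 40.9% (log2 change 0.48 ± 0.06, limma adjusted p = 0.00345). EIF2B1, the alpha subunit of the regulatory part, was at 66.5, 70.2, 86.9 and 84.1 TPM and rose by 25.2% (limma adjusted p = 0.0101). Barasertib levels of both genes lay above the controls, as did those of 49.1% of all tested genes. The EIF2B1 call was lost without barasertib replicate 1 (limma adjusted p = 0.0563) and after median-of-ratios scaling (adjusted p = 0.0589), and the gene overlaps GTF2H3 on the other strand, which was at 40.7 TPM. The catalytic EIF2B5, at 100.95, 101.05, 98.9 and 97.0 TPM, was not called (log2 change -0.04, 95% interval -0.16 to 0.07), and neither were EIF2B2 and EIF2B4 (0.14 and 0.10). EIF2B5 fell only after median-of-ratios scaling (log2 change -0.18, limma adjusted p = 0.0432).

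The 14 genes of eIF3, the largest initiation factor, divided into subunits that fell, subunits that rose and subunits with no call. EIF3L, a peripheral subunit, was at 551, 561, 445 and 442 TPM and fell by 20.2% (log2 change -0.32 ± 0.04, limma adjusted p = 0.00237). EIF3E, which lies beside EIF3D and contacts the eIF4F side of the complex, was at 879, 872, 747 and 761 TPM and fell by 13.9% (limma adjusted p = 0.0069). The EIF3L and EIF3E calls held with every library left out. The scaffold subunit EIF3A was at 231, 223, 197 and 195 TPM and fell by 13.6%. EIF3F, at 375, 374, 330.4 and 332 TPM, fell by 11.5%. EIF3D, which can bind caps itself, was at 458, 469, 425 and 423 TPM and fell by 8.58%. All 5 were lower in both barasertib libraries than in either control, as were 19.7% of all tested genes. The EIF3F and EIF3D calls were lost in each leave-one-out fit. The EIF3A call held only without DMSO replicate 2, and limma adjusted p reached 0.0897 in the other leave-one-out fits. All 5 fell under all 3 scalings, as did 7.05% of all tested genes.

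The eIF3 subunits that rose were EIF3B and EIF3J. EIF3B, a scaffold subunit with an RNA recognition motif, was at 334, 329, 386 and 381 TPM and rose by 15.7% (limma adjusted p = 0.0109). EIF3J, a loosely bound subunit at the mRNA channel, was at 63.5, 63.6, 76.1 and 74.4 TPM and rose by 18.3% (limma adjusted p = 0.0196). Both barasertib libraries lay above the controls for each gene, as for 49.1% of all tested genes. Neither call held after median-of-ratios scaling, and EIF3J was lost in each leave-one-out fit and EIF3B without barasertib replicate 1 (adjusted p = 0.0533). EIF3G, EIF3H, EIF3I, EIF3K and EIF3M were not called, at log2 changes between -0.07 and 0.10, although EIF3G, EIF3H and EIF3K fell after median-of-ratios scaling. Summed over the 14 genes, eIF3 went from 5016 ± 25.9 to 4753 ± 17.7 TPM.

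EIF3C and its near-identical copy EIF3CL share reads, so their separate values are uncertain. EIF3C was at 233, 106, 255 and 116 TPM, and EIF3CL was at 72.9, 190.1, 67.1 and 204 TPM. In both groups the library numbered 1 had most of the signal on EIF3C and the library numbered 2 on EIF3CL. Their sum varied little, at 306, 296, 322 and 319.9 TPM. In hg19 both IDs are annotated at overlapping places on chromosome 16, EIF3C from 28390903 to 28437775 and from 28699879 to 28747050. Neither gene was called (limma adjusted p = 0.855 and 0.994), and 2 libraries with opposite splits leave wide intervals, from -0.99 to 1.25 for EIF3C.

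**Figure D3:**
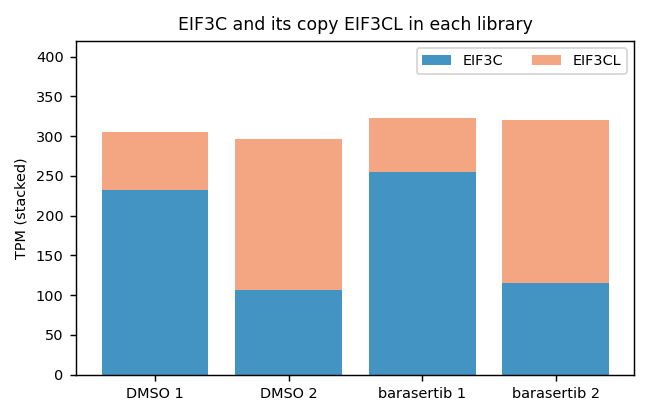
Stacked TPM of EIF3C and EIF3CL in each library. The total stays between 296 and 322 TPM, whereas the split between the copies reverses from the first to the second library in both groups.

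Within the cap-binding machinery, helicase and scaffold paralogs behaved differently. EIF4B, which stimulates the helicase eIF4A, was at 720.1, 706, 505 and 537 TPM, well separated between groups. It fell by 27.0% (log2 change -0.45 ± 0.04, limma adjusted p = 0.00155), with every library left out and under all 3 scalings. EIF4A3, the eIF4A paralog that anchors the exon junction complex on spliced messages, was at 184, 185, 244 and 235 TPM and lay above the controls in both barasertib libraries. It rose by 30.1% (log2 change 0.38 ± 0.04, limma adjusted p = 0.00267), also in all of those fits. The abundant helicases of eIF4F did not pass in TPM. EIF4A1 was at 1400.05, 1394, 1518 and 1479.75 TPM (log2 change 0.10, 95% interval 0.02 to 0.18, limma adjusted p = 0.0579), and EIF4A2 at 1364, 1352, 1383 and 1416 TPM (0.04, 95% interval -0.03 to 0.12). Both were higher after quantile normalisation (limma adjusted p = 0.0065 and 0.0140). EIF4A2 overlaps RFC4 on the other strand (178 TPM), and the sources used here do not say whether strand was used in counting.

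The cap binder EIF4E was at 12.1, 12.5, 14.6 and 16.6 TPM. It rose in TPM (log2 change 0.32 ± 0.09, limma adjusted p = 0.0457), but not after the other scalings and in no leave-one-out fit (adjusted p between 0.0578 and 0.159). The scaffold EIF4G1 was at 461.4, 460.8, 517 and 518 TPM, and rose by 12.2%, a call lost after median-of-ratios scaling (adjusted p = 0.551) and in each leave-one-out fit (between 0.0638 and 0.0751). Its paralog EIF4G3 was at 96.8, 86.6, 77.2 and 78.7 TPM and fell by 15.01%, a call kept only without DMSO replicate 2 among the 4 leave-one-out fits. EIF4G1 exceeded EIF4G3 by a factor of 4.77 and 5.32 with DMSO and 6.70 and 6.58 with barasertib. The groups of this ratio did not overlap. EIF4G2 (DAP5), a scaffold without the part that binds eIF4E, averaged 410.3 ± 13.04 and 462 ± 28.1 TPM and was not called (limma adjusted p = 0.0611). The eIF4E paralogs EIF4E2 and EIF4E3 and the helicase cofactor EIF4H were not called either, although EIF4H fell after median-of-ratios scaling (limma adjusted p = 0.0390).

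Inhibitors of eIF4E were in part lower. EIF4EBP1 (4E-BP1), which sequesters eIF4E unless mTOR phosphorylates it and is also a target of the stress factor ATF4, was at 357, 331, 268 and 265 TPM. It fell by 22.5% (log2 change -0.36 ± 0.05, limma adjusted p = 0.00467), and the call held with each library left out. Its groups did not overlap, as in 68.8% of all tested genes in either direction. EIF4EBP2, the related inhibitor, was at 91.6, 92.9, 96.6 and 100.9 TPM and was not called (log2 change 0.10, 95% interval -0.03 to 0.22). The ratio of EIF4EBP1 to EIF4EBP2 was 3.90 and 3.56 with DMSO and 2.78 and 2.63 with barasertib. EIF4EBP3 was at 27.1, 27.3, 20.1 and 16.0 TPM and fell by 33.6% (log2 change -0.57 ± 0.11, limma adjusted p = 0.0141). Its exons also belong to the read-through gene ANKHD1-EIF4EBP3, at 17.4 TPM, so its own level is uncertain. EIF4ENIF1, the protein that carries eIF4E into the nucleus, was not called.

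At the start codon, the paralogs EIF1 and EIF1B fell together. EIF1, which keeps the scanning ribosome from starting at a poor codon, was at 1219.9, 1178, 976 and 973 TPM and fell by 18.7% (log2 change -0.30 ± 0.03, limma adjusted p = 0.00267), also with each library left out. EIF1B was at 169, 163, 136 and 145 TPM and fell by 15.5%, a call lost without barasertib replicate 1 or DMSO replicate 1 (highest limma adjusted p = 0.0882). Both genes were lower in both barasertib libraries than in either control, as were 19.7% of all tested genes. EIF5, which triggers GTP hydrolysis by eIF2 and opposes eIF1 at the start codon, was at 114, 117, 125 and 137 TPM, higher in both barasertib libraries but not called (log2 change 0.17, 95% interval 0.03 to 0.32, limma adjusted p = 0.0763). EIF1AX, which encodes the scanning factor eIF1A, and EIF1AD, which carries an eIF1A domain, were not called, and EIF1AD overlaps BANF1 on the other strand, at 318 TPM.

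Of the 4 tested genes for subunit joining and later steps, EIF5A and EIF5B rose in TPM, beside 22.0% of all tested genes. EIF5A alone rose after median-of-ratios scaling, beside 1534 of all 13938 tested genes. Both rose after quantile normalisation, beside 1649. EIF5A, the only protein known to carry the amino acid hypusine together with its paralog EIF5A2, helps ribosomes through sequences such as proline runs. It was at 659.5, 706, 992 and 943 TPM, and the barasertib levels lay well above the controls. The rise of 41.7% (log2 change 0.50 ± 0.05, limma adjusted p = 0.00154) held with every library left out and under all 3 scalings. EIF5A2 was at 3.27, 2.39, 3.19 and 3.35 TPM, with overlapping groups, and was not called (95% interval of the log2 change -0.23 to 0.56). EIF5B, the GTPase that joins the subunits, was at 100.1, 97.0, 123 and 120.4 TPM and rose by 23.6% (limma adjusted p = 0.0078), a call lost after median-of-ratios scaling (adjusted p = 0.0548). EIF6, which keeps free large subunits apart, was at 120.5, 119, 138 and 131 TPM and was not called (limma adjusted p = 0.0563).

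Levels summed over the set show how unevenly these differences weighed. The 63 genes together took 3.80% of the TPM with DMSO and 3.25% with barasertib, at 37942, 38003 (DMSO), 32275 and 32816 TPM (barasertib). Members that are textbook TOP messages were grouped from general knowledge, with earlier results of these data known, as EEF1A1, EEF1B2, EEF1D, EEF1G, EEF2, EIF3E, EIF3F, EIF3H and EIF4B. These 9 summed to 25830.4 ± 44.2 TPM in DMSO libraries and to 20299.6 ± 412 TPM after barasertib. The other 54 members summed to 12142.5 ± 0.952 and 12246 ± 29.5 TPM. Of the 9, 7 fell and none rose, beside 7.44% and 22.0% of all tested genes, with a median log2 change of -0.22. All 9 were lower in both barasertib libraries than in either DMSO library, as were 19.7% of all tested genes. The list and the split are therefore no independent evidence of a direction. Of the 51 other tested members 13 fell (25.5%) and 12 rose (23.5%), at a median of 0.10, beside 0.11 for all tested genes. That balance depended on the scaling. Over all 13938 tested genes 1891 fell and 1534 rose after median-of-ratios scaling, and 1590 and 1649 after quantile normalisation. For the 51 members the counts were 18 that fell and 5 that rose after median-of-ratios scaling (median -0.04). They were 14 and 11 after quantile normalisation (-0.02). With any library left out, fewer of the 51 were called in each direction, as among all tested genes. The 77 cytosolic ribosomal protein genes, also TOP messages, had a median of -0.21. Of these, 60 fell and 1 rose, beside the same 7.44% and 22.0% of all tested genes. Median-of-ratios scaling gave medians of -0.35 for the 9 members and -0.34 for the ribosomal protein genes, and quantile normalisation gave -0.16 and -0.05, with 5 members and 20 ribosomal protein genes called lower and 0 and 6 called higher.

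**Figure D4:**
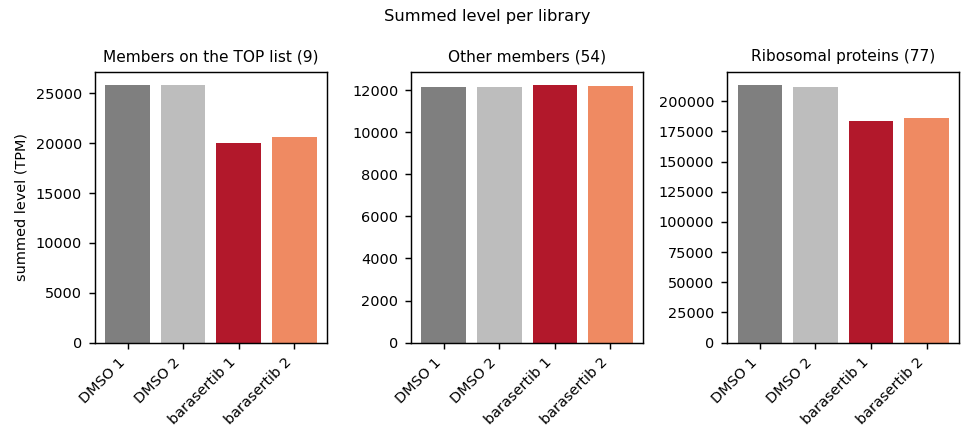
Summed level per library (TPM, axes from 0) of the 9 members on the TOP list, the other 54 members and 77 ribosomal protein genes. In TPM the left and right panels are lower in both barasertib libraries, and the middle panel is nearly level. These sums were not made under the other scalings.

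The printed start sites include members with and without a pyrimidine run. RefSeq windows reaching from 250 bases before to 50 bases after the annotated start were found for 50 of the 63 members. They were searched for a run of at least 8 C or T whose first base lies within 10 bases of the annotated start. Such a run was found in 10 of the 15 members that fell and have a window: EEF1A1, EEF1B2, EEF2, EIF2A, EIF2D, EIF2S3, EIF3D, EIF3F, EIF4B and EIF4G3. The members that fell without such a run in a window were EEF1G, which is on the TOP list, EEF2K, EIF1, EIF1B and EIF4EBP3. A run was found in 0 of the 10 that rose and in 3 of the 22 that were not called (EIF3K, EIF3M and EIF4H). Among all tested genes with a window, the run was found in 27.0% of those that fell, 13.1% of those that rose and 1067 of the 7623 not called, and in 85.5% of the ribosomal protein genes. EEF1A1, EEF1B2, EEF2, EIF3F and EIF4B were on the TOP list, which names messages known for such a run. EIF2A, EIF2D, EIF2S3, EIF3D and EIF4G3 were not on the TOP list. The run of EIF4G3 was 8 bases long, began 10 bases before the annotated start and so ended ahead of it. EEF1B2 and EIF4G3 also had a window without such a run. A match describes the letters near an annotated start and shows neither where transcripts start in these cells nor a control of the message.

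**Figure D5:**
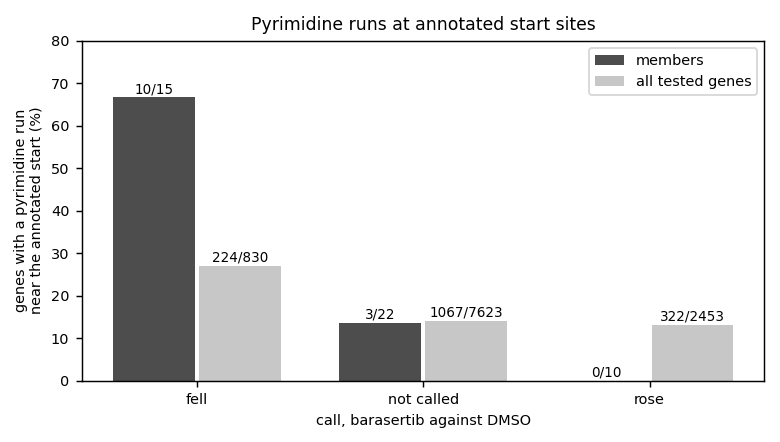
Share of genes (percent) with a run of at least 8 pyrimidines that starts within 10 bases of the annotated start, by call, for members (dark) and all tested genes (light). Numbers above the bars give genes with a run over genes with a window. Among members the share is 66.7% for those that fell and 0 for those that rose.

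Other motifs were searched in the same windows. TGATGNAA, the core of the element bound by ATF4, was found on either strand in 1 of 50 members with a window (EIF4E3) and in 2.63% of tested genes. EIF4EBP1 had no window and was not searched. The ER stress response element, searched by its letters on either strand, was found in 1 of 50 (EIF2A) and in 16 of 10906 tested genes, of which 13 were among the 830 that fell, 0 among the 2453 that rose and 3 among the 7623 not called. CACGTG, the E box bound by MYC and related factors, was found on either strand in 12 of 50 members (24.0%) and in 12.7% of tested genes: in 5 members that fell (EEF2K, EIF1B, EIF3F, EIF4B and EIF4EBP3), 4 that rose (EIF2B3, EIF4A3, EIF4E and EIF4G1) and 3 not called (EIF3K, EIF4H and EIF5A2).

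Other genes of the translation pathway gave the setting of the factors. Of 65 further translation genes, 8 fell and 13 rose, beside 7.44% and 22.0% of all tested genes. The balance reversed with scaling, to 13 that fell and 4 that rose after median-of-ratios scaling and 11 and 6 after quantile normalisation. Calls over all 13938 tested genes shifted too, to 1891 that fell and 1534 that rose after median-of-ratios scaling. Quantile normalisation gave 1590 and 1649. Among the eIF2 kinases, EIF2AK1 (HRI) fell from 116 to 97.4 TPM (log2 change -0.25, limma adjusted p = 0.0198), a call lost without barasertib replicate 1 or DMSO replicate 2, and EIF2AK2 (PKR), EIF2AK3 (PERK) and EIF2AK4 (GCN2) were not called. PPP1R15A (GADD34), the inducible subunit of the eIF2 phosphatase, rose in TPM (log2 change 0.31, limma adjusted p = 0.0203), but in no leave-one-out fit and under neither of the other scalings, and the catalytic subunit PPP1CC fell (-0.25, adjusted p = 0.0077). Near the mTOR pathway, DEPTOR, an mTOR inhibitor, fell (log2 change -0.56, limma adjusted p = 0.00324), as did MKNK2, a kinase of eIF4E (-0.48, adjusted p = 0.00208). RPS6KB2, an S6 kinase, rose (0.36, limma adjusted p = 0.0105), except without barasertib replicate 1. PABPC1, the main poly(A)-binding protein, was at 2171, 2085, 1709 and 1776 TPM and fell (-0.29, limma adjusted p = 0.00364). LARP1 was not called in TPM (log2 change -0.05) but fell after median-of-ratios scaling and quantile normalisation (limma adjusted p = 0.0272 and 0.0389). With any library left out, fewer of the 65 were called in each direction, as among all tested genes. The fewest rose without barasertib replicate 2.

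Release factors and enzymes that act around the members changed in both directions. Of the 8 genes of termination and ribosome rescue 5 rose and none fell, beside 22.0% and 7.44% of all tested genes, among them GSPT2 (eRF3b), at 34.1, 33.8, 45.04 and 45.1 TPM (log2 change 0.40, limma adjusted p = 0.0056), and HBS1L (0.31, adjusted p = 0.0142). Fewer of them rose with any library left out, as among all tested genes, and HBS1L was lost without barasertib replicate 2 or DMSO replicate 2. After median-of-ratios scaling 1 of these 8 rose, and after quantile normalisation 2, beside 1534 and 1649 of all 13938 tested genes. The pair of enzymes that make hypusine on EIF5A differed in direction: DHPS, which acts first, was at 80.9, 74.6, 65.9 and 54.3 TPM and fell (-0.37, limma adjusted p = 0.0374), whereas DOHH, which completes it, was at 25.4, 24.7, 31.3 and 33.2 TPM and rose (0.35, adjusted p = 0.0134). The DHPS call was lost without barasertib replicate 2 or DMSO replicate 1, and the DOHH call without barasertib replicate 2 or DMSO replicate 2 and after median-of-ratios scaling. In diphthamide synthesis, the modification of eEF2, DPH7 rose (0.87, limma adjusted p = 0.00274) and DPH5 fell (-0.32, adjusted p = 0.0064). Of the 9 genes for hypusine and diphthamide synthesis 3 rose and 2 fell in TPM, beside 22.0% and 7.44% of all tested genes. After median-of-ratios scaling 1 rose and 2 fell, beside 1534 and 1891 of all 13938 tested genes. BZW1, a mimic of eIF5 that inhibits start-site recognition, rose (0.39, limma adjusted p = 0.00484). Among the 8 genes for mitochondrial and selenocysteine factors 1 fell and none rose, beside 7.44% and 22.0% of all tested genes. It was MTIF2 (-0.19, limma adjusted p = 0.0422), a call lost in each leave-one-out fit. After median-of-ratios scaling 3 of the 8 fell, beside 1891 of all 13938 tested genes.

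The tables hold no read counts. The ratio of deposited coverage to FPKM, which reflects aligned bases, reached 4.22 to 4.59 (Gb) per library, and replicate log2 values differed with an SD of 0.25 over tested genes in both groups and of 0.16 (barasertib) and 0.13 (DMSO) over genes of at least 100 TPM. The markers POU5F1, SOX2, NANOG, LIN28A, SALL4, DPPA4, CRIPTO and PODXL were at 90.4 TPM or more in every library, and TNFRSF8 (CD30) was at 3.0 to 3.77 TPM. Several of them moved with treatment: NANOG rose (log2 change 0.62, limma adjusted p = 0.00103) and SOX2 and CRIPTO fell (-0.21 and -0.32, adjusted p = 0.0143 and 0.0126) under all 3 scalings, the SOX2 call being lost without barasertib replicate 1 or DMSO replicate 1. POU5F1, LIN28A and DPPA4 rose in TPM (0.14, 0.23 and 1.12) but not after median-of-ratios scaling, and each call was lost without barasertib replicate 1, that of DPPA4 also without barasertib replicate 2, and that of POU5F1 in every leave-one-out fit but the one without DMSO replicate 1. DPPA4 was at 90.4 and 188 TPM in the DMSO libraries, and PODXL at 506 and 167 TPM in the barasertib libraries. The part of these shifts in the members' results was not tested. The yolk sac and endoderm markers AFP, GATA4, SOX17, FOXA2 and APOA1 were under 1 TPM in every library. Of the 3 blood markers PTPRC and HBB were at 0 and CD68 was at 3.30 to 3.90 TPM, and of the 5 trophoblast markers ELF5 and KRT7 were at 0 and HAND1 reached 41.6 TPM. The 5 fibroblast markers summed to 8.70 and 9.79 TPM with DMSO and 13.6 and 13.7 TPM with barasertib, mostly PDGFRA, with DCN under 0.1 TPM, and their part in the results was not tested. The coverage of some members was low relative to their FPKM. It was 9.54% of the upper value for EEF1E1, 12.6% for EIF4E2, 24.2% for EEF1D and 40.4% for EIF5A. Their levels relative to other genes are therefore less certain, and whether their differences between groups are affected was not tested. A change in TPM is relative to all other RNA of the cells, and fewer cells of a type and less RNA per cell cannot be told apart in these bulk samples.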

How the data were processed

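Messenger RNA libraries of 4 samples were sequenced. The labels' protocols name both a standard and a stranded TruSeq mRNA preparation. Per the submitters' processing notes, the authors used HISAT2, StringTie and hg19, with no versions or options given. Per the file headers, each deposited table holds coverage, FPKM and TPM per gene row. Deposited coverage, a signal, was used only to describe depth, and FPKM only as an alternative. Rows were summed per gene ID, and RefSeq (GRCh38.p14) gave symbols for 27559 of 27685 IDs and the start-site windows.

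Differences were tested in R 4.3.3 using limma 3.58.1, on values of log2(TPM + 1) and with no covariate beside the treatment. Variances were moderated along the mean (residual degrees of freedom 2, prior 4.09). Tests were two-sided, with Benjamini-Hochberg adjustment over the 13938 genes that averaged 1 TPM or more. The fit was tested on simulated data with 200 changed genes among 13938. It recovered 23.8% of changes of 1.5-fold and 68.2% of changes of 2-fold, and 3.16% of its calls were false. A gene that is not called may therefore still differ. In the data 29.5% of tested genes were called, far more than were changed in the simulation, which also held no shift of the typical gene. The simulated shares of recovered and false calls need not hold for the calls here. Python 3.11.15 and matplotlib 3.10.9 made the tables and plots. Members, roles and lists were chosen with earlier results of these data known. Per-library values are printed for called members, above all the 10 that rose most and the 10 that fell most, for the 10 most abundant members and for members fixed by name. NAT1, entered in error among the other translation genes, was left out. Alternatives were the filter, pseudocount, unit, scaling, variance model, a replicate block, a 2-fold threshold and each library left out.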

Additional observations from a re-analysis of the deposited data

How the results depend on the processing

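No member changed direction with a call under any alternative run, and 14 of the 32 called members kept their call under all of those that tested them. Over 837 combinations of member and setting, 28 changed sign with no call on either side. Counts of members that rose and fell, 12 and 20, were 5 and 27 after median-of-ratios scaling, 7 and 11 without the mean-variance trend, and 1 and 0 with a 2-fold threshold added. With 1 library left out they ran from 6 to 9 and from 11 to 14. The other translation genes that rose and fell, 13 and 8, were 4 and 13 after median-of-ratios scaling and 6 and 11 after quantile normalisation. These counts were 7 and 4 without the trend and 0 and 0 at 2-fold, and both were lower with a library left out. The summed TPM of members with barasertib over that with DMSO, 0.857, was 0.843 in FPKM, 0.780 after median-of-ratios scaling and 0.927 after quantile normalisation, and 0.850 to 0.864 with a library left out. Over all 13938 tested genes 1534 rose and 1891 fell after median-of-ratios scaling, and 1649 and 1590 after quantile normalisation. Fewer tested genes were called in each direction with any library left out. The causes of these shifts were not tested. The groups share replicate numbers, and the labels do not say whether these pair the samples. Over tested genes, deviations of same-numbered libraries had r = 0.02, although the split between EIF3C and EIF3CL followed the number in both groups. With replicate number as a block 12 members rose and 18 fell, and 29 of the 32 calls were kept. Those of EEF1B2, EIF3D and EEF1AKMT1 were lost (limma adjusted p = 0.05003, 0.0569 and 0.0559). Ratios between genes do not change with scaling by a factor per library. Quantile normalisation and the block were not run for them. The EEF1A1 to EEF1A2 ratio changed by -1.77 on the log2 scale and by -1.48 with a pseudocount of 5. Read counts per gene are unknown, which limits statements on members near 1 TPM.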
